A study of Mus musculus with 6 samples.

Results

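Chemokines and their receptors were followed in bulk RNA-seq of mouse corneas. The members were every protein-coding gene whose GENCODE M21 symbol starts as a ligand (Ccl, Cxcl, Cx3cl, Xcl), a receptor (Ccr, Cxcr, Cx3cr, Xcr) or an atypical receptor (Ackr) followed by a digit. This rule found 67 gene IDs with 62 symbols among the 55421 genes of each file, 44 IDs for ligands and 23 for receptors; 3 pseudogenes with such names, Cxcl11 among them, were left out. The mutant group held 3 libraries (M1 to M3) of corneas from mice heterozygous for a Pax6 mutation, and the wildtype group 3 libraries (W1 to W3), all from mice aged 20 weeks and described by the series design as biological replicates. The labels name neither the mutant allele nor the strain, and they do not say whether a library holds 1 animal or a pool. The question was which chemokine and receptor transcripts differ between mutant and wildtype corneas.

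Chemokines are small secreted or membrane-bound proteins that steer leukocytes along concentration gradients. They are named by the spacing of their first cysteines, and they act on G protein-coupled receptors that leukocytes carry in cell type-specific sets, while atypical receptors bind and remove ligands without G protein signalling. Inflammatory ligands are made on demand, many of them under NF-κB, and homeostatic ligands are made steadily by epithelia and stroma. In the cornea, neutrophil-attracting ligands of epithelium and keratocytes bring leukocytes from the limbal vessels after injury.

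Gene counts per library were 16858005 to 21846406, and values per library are given as CPM, counts scaled to library size with TMM factors. Pax6 itself stood at 447, 396 and 356 CPM in mutant and 841, 766 and 761 CPM in wildtype libraries, and the corneal keratin Krt12 at 4335, 7200 and 4140 CPM in mutant and 21562, 18762 and 15059 CPM in wildtype libraries. Some libraries stood apart. M1 was the only library with no count in the Y-linked genes Kdm5d, Uty, Ddx3y and Eif2s3y, and it held 18628 Xist counts. W1 had 2.81 CPM summed over 10 blood endothelial markers, against 54.8 and 52.6 CPM in W2 and W3, and 9.72 CPM over 5 melanocyte markers, against 313 and 184 CPM. Results for members that rest on M1 or W1 are given with the values without them. In bulk tissue, more cells of a type and more RNA per cell cannot be told apart.

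Of the 67 members, 53 had at least 1 count and were tested with no further filter, and 14 of the 53 (26.4%) rose in mutant corneas in edgeR's quasi-likelihood fit, with p-values adjusted by Benjamini-Hochberg over all 28717 genes. None fell, and neither DESeq2 nor limma-voom called a lower member. Over all genes tested, 5.53% rose and 3.96% fell at the adjusted threshold. At an unadjusted p under 0.05 by the same edgeR test, 18 members were higher and 0 were lower. Of all 28717 genes, 4846 passed that unadjusted threshold in either direction. Among the 14 were the ligands Cxcl17, Cxcl16, Ccl6, Cxcl12, Cxcl5, Cxcl1, Cxcl3, Cxcl2 and Ccl20 and the receptors Ccr2, Cxcr6, Ccr1 and Cxcr2. The median log2 fold change of the 53 was 2.32, or 1.59 with genes at 0 in a group set to the bound that 3 counts allow, beside -0.01 over all genes tested. In 20 of the 53 every mutant library lay above every wildtype library (37.7%, beside 11% of all genes tested), and in 0 below (beside 8.85%). By sign 44 of the 53 were higher and 9 lower, and the abundant members Cx3cl1 and Ackr3 had log2 fold changes below 0 that did not pass.

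The fit without a filter took each gene's spread entirely from the trend over all genes, since its prior degrees of freedom came out infinite, so that a gene with unequal replicates was judged by the spread of typical genes. A fit with edgeR's adjustment for small counts, added after the data were seen, had prior degrees of freedom of 11.5 and is called the small-count fit; its adjusted p is printed beside each member's call, and for other lists the text says where its calls differ. It called 8 of the 53 members higher (15.1%, beside 4.13% of all genes higher and 2.65% lower), 7 of them among the 14, and it added Ccr9. After edgeR's filterByExpr, which 16 members passed, 5 rose and 0 fell, beside 5.59% and 4.46% of the genes tested there. In all, 5 fits without a filter were compared, the others being a robust version of the small-count fit, DESeq2 and limma-voom. Cxcl17, Cxcl16, Ccl6, Ccr2 and Cxcr6 passed in all 5 of these fits.

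**Figure D1:**
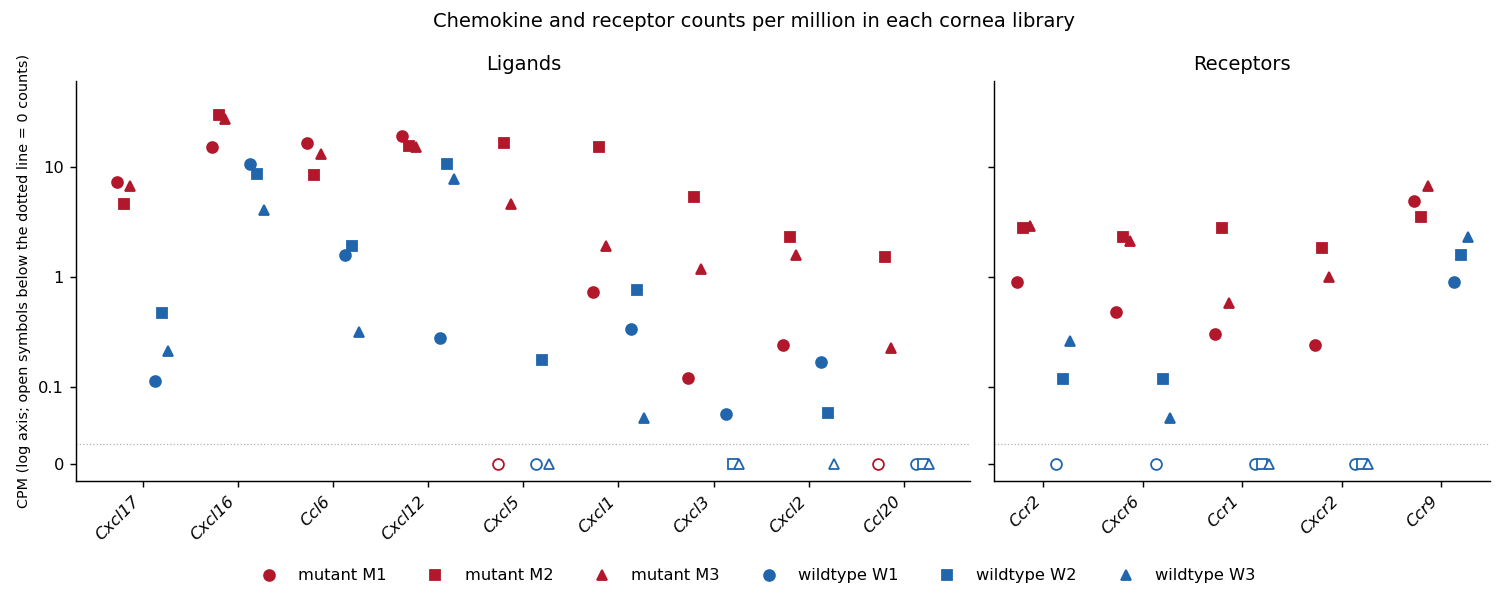
CPM on a log axis for 13 of the members that rose and for Ccr9, 1 symbol per library, with mutant (red) left of wildtype (blue) and symbols at the bottom for libraries with 0 counts. For Cxcl17, Ccl6, Cxcl16 and the receptors shown every mutant library lies above every wildtype library, whereas M1 lies among the wildtype libraries for Cxcl5 and Cxcl1.

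Cxcl17, a chemokine of mucosal epithelia that attracts myeloid cells, had 7.29, 4.63 and 6.74 CPM in the mutant libraries and 0.112, 0.466 and 0.210 CPM in the wildtype libraries. The lowest mutant library was far above the highest wildtype library, and the mutant values lay close together. Its log2 fold change was 4.54 ± 0.69 (SE), and edgeR gave adjusted p values of 2.9e-09 in its default fit and 5e-05 in its small-count fit. It kept its call without any single library (adjusted p by edgeR at most 7.2e-06). Markers of conjunctival and goblet epithelium moved with it, and 7 of 10 rose in the default fit and 6 in the small-count fit. These 10 markers summed to 7521, 6235 and 7174 CPM in M1 to M3 and to 371, 678 and 501 CPM in W1 to W3. Their part in the level of Cxcl17 was not tested. The gene (ENSMUSG00000060188) is on chromosome 7, and no exon of another gene overlaps its exons.

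Cxcl16 and its receptor Cxcr6 rose together. Cxcl16 is made as a membrane-bound protein that also acts as a scavenger receptor, and Cxcr6 is carried by T cells and natural killer cells. Cxcl16 had 15.1, 29.4 and 27.1 CPM in mutant and 10.5, 8.62 and 4.05 CPM in wildtype libraries, so that M1 was close to the highest wildtype library without overlapping it. The log2 fold change of Cxcl16 was 1.63 ± 0.27 (SE), and edgeR gave adjusted p values of 3.8e-08 in its default fit and 0.0041 in its small-count fit. Cxcr6 had 8, 41 and 47 counts in mutant and 0, 2 and 1 counts in wildtype libraries. Over the libraries of a group this was a 30.4-fold higher level, with a 95% exact interval of 10.1 to 150 that covers counting error only. The adjusted p of Cxcr6 by edgeR was 0.0047 in the default fit and 0.024 in the small-count fit, and its call was lost without M2 or without M3 (adjusted p = 0.084 each). Exons of Cxcl16 overlap those of Zmynd15 on the opposite strand, and whether the counting used strand is not stated in the labels. Zmynd15 had 51, 17 and 15 counts in mutant and 14, 1 and 10 counts in wildtype libraries, few beside the 251 to 603 and 77 to 187 counts of Cxcl16.

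Ccl6, a CC chemokine of rodents that macrophages and other myeloid cells make, had 16.4, 8.37 and 13.0 CPM in mutant and 1.57, 1.92 and 0.316 CPM in wildtype libraries. All mutant libraries were above all wildtype libraries, and unlike many other members M1 was the highest. Its log2 fold change was 3.31 ± 0.44 (SE), and edgeR gave adjusted p values of 3.3e-12 in its default fit and 0.00016 in its small-count fit. Ccl9, the neighbour of Ccl6 on chromosome 11 and likewise a rodent gene, had 10, 22 and 26 counts in mutant and 0, 1 and 6 counts in wildtype libraries. The groups of Ccl9 did not overlap, but its log2 fold change of 2.92 ± 1.37 (SE) did not pass (adjusted p = 0.22 by edgeR). Ccr1, the receptor of monocytes and neutrophils for both of these ligands, had 5, 50 and 13 counts in mutant libraries and 0 in each wildtype library. This was at least 21.6-fold higher, with 3 counts allowed to the wildtype group, and its adjusted p was 0.0011 in edgeR's default fit and 0.088 in its small-count fit. M2 held most of the Ccr1 counts, and without M2 the adjusted p by edgeR was 0.24.

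The neutrophil-attracting CXC ligands form a cluster on chromosome 5, with Cxcl5, Cxcl3, Cxcl15, Cxcl1 and Cxcl2 in this order between 90759360 and 90905938 on the plus strand (GRCm38). They act on Cxcr2. In the mutant libraries these ligands summed to 1.09, 39.0 and 9.26 CPM, and in the wildtype libraries to 0.562, 0.991 and 0.105 CPM. M2 was by far the highest and M3 intermediate, while M1 was barely above W2. The promoters of Cxcl1, Cxcl2 and Cxcl3, and that of Ccl20, an epithelial ligand with a similar pattern over the libraries, are printed because these genes were high in the same libraries; Cxcl5, Cxcl16 and Cxcl17 are not in the promoter table. They are 300 bases from 250 before to 50 after the start of the gene (RefSeq, GRCm38.p6, plus strand), at chr5:90890995-90891294 for Cxcl1, chr5:90903649-90903948 for Cxcl2, chr5:90785851-90786150 for Cxcl3 and chr1:83116516-83116815 for Ccl20. Capitals mark matches to the NF-κB consensus, searched on both strands.
Cxcl1: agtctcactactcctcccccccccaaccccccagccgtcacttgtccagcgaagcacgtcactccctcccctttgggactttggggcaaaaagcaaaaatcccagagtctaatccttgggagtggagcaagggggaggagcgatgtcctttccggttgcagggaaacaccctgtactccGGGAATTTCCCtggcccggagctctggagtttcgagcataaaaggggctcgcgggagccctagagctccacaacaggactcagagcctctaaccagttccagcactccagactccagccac
Cxcl2: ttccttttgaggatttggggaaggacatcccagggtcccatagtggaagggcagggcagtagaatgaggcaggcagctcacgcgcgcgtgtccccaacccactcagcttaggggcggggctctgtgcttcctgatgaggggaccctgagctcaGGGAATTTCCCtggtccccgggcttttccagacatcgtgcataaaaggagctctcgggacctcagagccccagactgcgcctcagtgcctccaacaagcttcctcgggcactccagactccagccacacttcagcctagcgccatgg
Cxcl3: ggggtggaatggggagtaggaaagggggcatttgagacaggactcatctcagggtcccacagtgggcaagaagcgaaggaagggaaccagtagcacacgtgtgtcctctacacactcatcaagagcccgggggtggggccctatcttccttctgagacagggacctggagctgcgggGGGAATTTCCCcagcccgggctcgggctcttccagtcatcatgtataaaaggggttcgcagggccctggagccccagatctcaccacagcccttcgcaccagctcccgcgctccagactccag
Ccl20: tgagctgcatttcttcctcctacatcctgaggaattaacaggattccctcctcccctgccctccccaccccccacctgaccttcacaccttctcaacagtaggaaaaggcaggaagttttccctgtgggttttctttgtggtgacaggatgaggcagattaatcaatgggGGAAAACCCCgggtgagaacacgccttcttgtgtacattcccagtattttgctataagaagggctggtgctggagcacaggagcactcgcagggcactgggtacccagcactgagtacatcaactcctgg

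Cxcl1, Cxcl2 and Cxcl3 shared the same 11 bases, GGGAATTTCCC, which match on both strands with an overlap. They begin 71 bases before the start of Cxcl1, 97 before that of Cxcl2 and 73 before that of Cxcl3. The match of Ccl20, GGAAAACCCC, is on the minus strand and begins 80 bases before the start. Of all 32851 promoters of this length, 4.51% hold a match to the consensus. All 32851 included 53 promoters of 46 of the 62 member symbols, and 10 of the 53 held a match. These belonged to 10 symbols, which besides the 4 printed were Ackr2, Ccl27a, Ccl9, Ccr3, Ccr6 and Cxcl10. The other members that rose had no match or were not listed. A match describes letters and is no evidence of binding in these corneas. For Cxcl15, a ligand of lung epithelium in the same cluster with 0 counts in all mutant libraries and 1 count in W3, these letters are not in the window. TATAAA, the TATA box, was found in 13.6% of all promoters and in 15 of the 53 member promoters, those of Cxcl3 and Cxcl15 among them. TGANTCA, the AP-1 site, was found in 7.81% of all promoters and in 10 of the 53 member promoters, of 9 symbols.

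Cxcl5 had 0, 293 and 103 counts in M1, M2 and M3, and 0, 3 and 0 counts in W1, W2 and W3. The groups overlapped, because M1 held no count, while M2 and M3 were far above every wildtype library. The sums over the libraries stood in a ratio of 126, with a 95% exact interval of 42.6 to 611 for counting error only. By edgeR the adjusted p was 9.1e-16 in the default fit and 0.013 in the small-count fit, whereas it was 0.16 by DESeq2 and 0.24 by limma-voom. Cxcl1, named KC in the mouse, had 0.723, 15.1 and 1.89 CPM in mutant and 0.337, 0.758 and 0.0526 CPM in wildtype libraries. Again M1 lay within the wildtype range. Its log2 fold change of 3.93 ± 0.68 (SE) had an adjusted p of 2.5e-07 by edgeR's default fit and 0.038 by its small-count fit, and without M2 the log2 fold change was 1.76 with an adjusted p of 0.64 by edgeR.

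Cxcl3 had 2, 96 and 26 counts in mutant and 1, 0 and 0 counts in wildtype libraries. M1 was just above the wildtype libraries. Its adjusted p by edgeR was 3.1e-05 in the default fit and 0.062 in the small-count fit. Cxcl2 had 4, 41 and 35 counts in mutant and 3, 1 and 0 counts in wildtype libraries, with M2 and M3 alike. Its log2 fold change was 4.07 ± 1.33 (SE), and edgeR gave adjusted p values of 0.026 in its default fit and 0.054 in its small-count fit. Without M2 neither call held (adjusted p by edgeR 0.29 for Cxcl3 and 0.34 for Cxcl2), nor did that of Cxcl2 without M3, W2 or W3 (0.17, 0.067 and 0.087).

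Their receptor Cxcr2, carried mainly by neutrophils, showed the same order of libraries. It had 4, 33 and 22 counts in mutant libraries and 0 in each wildtype library, at least 18.7-fold higher by the same bound. Its adjusted p by edgeR was 0.0034 in the default fit and 0.075 in the small-count fit, and without M2 it was 0.12. Cxcr1, the other receptor for ligands of this class, had 0 counts in all 6 libraries. The sum of neutrophil markers moved with these genes. The 11 markers summed to 3.98, 28.6 and 17.1 CPM in mutant and 3.15, 0.175 and 0.947 CPM in wildtype libraries, 2 of them rose, and 4 were at 0 in all libraries. S100a9, a calcium-binding protein of neutrophils that stressed epithelium also makes, had 0.301, 18.1 and 12.0 CPM in M1 to M3 and 1.74, 0.117 and 0 CPM in W1 to W3. Most of the marker sum in M2 and M3 was thus S100a9. The part of neutrophils in the rise of the ligands was not tested.

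Il17a and Il1b, cytokines that induce these ligands, had the same order of mutant libraries and were picked after their values were seen. Il17a had 0, 3.85 and 0.495 CPM in M1, M2 and M3 and no count in wildtype libraries (adjusted p by edgeR 0.00027 in the default fit and 0.13 in the small-count fit). Il1b had 0.241, 4.85 and 2.11 CPM in mutant and 0, 0 and 0.263 CPM in wildtype libraries (adjusted p by edgeR 0.00042 and 0.027). Other inducers did not all share the pattern. Il17f had 2, 15 and 0 counts and Il6 had 1, 0 and 0 counts in M1, M2 and M3, with none in wildtype libraries, and Tnf had 1.09, 9.32 and 7.19 CPM in mutant and 5.79, 3.26 and 4.31 CPM in wildtype libraries. None of Il17f, Il6 and Tnf passed the test. M1 is also the library with Xist and without Y-linked counts, and with 1 such library its properties cannot be told apart.

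**Figure D2:**
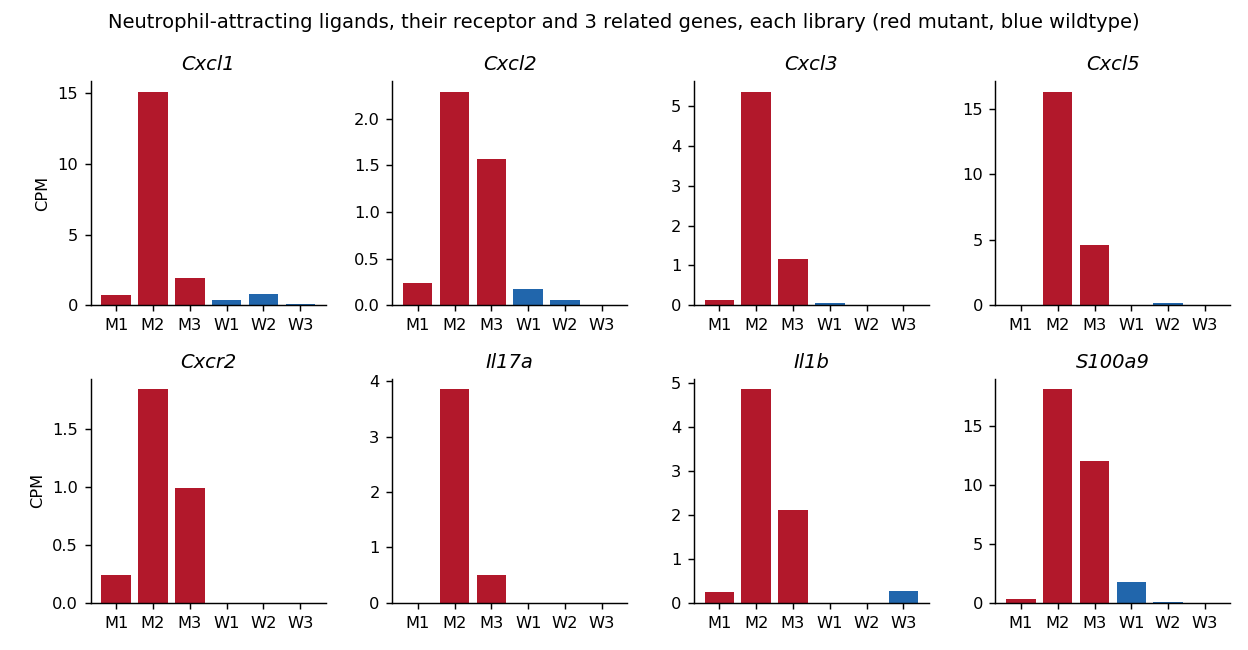
CPM in each library (bars from 0, a separate scale per gene) of the ligands Cxcl1, Cxcl2, Cxcl3 and Cxcl5, their receptor Cxcr2, the cytokines Il17a and Il1b and the neutrophil gene S100a9. In all 8 panels M2 is the highest library and M3 the next, and M1 is at or near the level of the wildtype libraries.

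Ccl20 attracts Th17 cells, B cells and dendritic cells through Ccr6. Ccl20 had 0, 27 and 5 counts in mutant libraries and 0 in each wildtype library, at least 10.1-fold higher by the same bound. M2 held most of these counts, and the adjusted p by edgeR was 0.05, just under the threshold, in the default fit and 0.28 in the small-count fit. Its call was lost without M2, M3 or any wildtype library (adjusted p by edgeR 0.076 to 0.62). Ccr6 had 8, 4 and 17 counts in mutant libraries and 0 in each wildtype library, at least 9.19-fold higher. The groups of Ccr6 did not overlap, yet it did not pass by edgeR (adjusted p = 0.079 in the default fit).

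Ccr2, the receptor by which monocytes leave the bone marrow, had 15, 50 and 64 counts in mutant and 0, 2 and 5 counts in wildtype libraries. Every mutant library was above every wildtype library, with a log2 fold change of 4.03 ± 1.08 (SE) and an adjusted p of 0.003 by edgeR's default fit and 0.0087 by its small-count fit. Without M2 or M3 its adjusted p by edgeR was 0.051 or 0.075. The ligands of Ccr2 were scarce. Ccl2 had 4, 8 and 1 counts in mutant libraries and 0 in each wildtype library, Ccl7 was counted in M2 and W2 alone (13 and 4 counts), and neither passed the test.

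Ccr9, the receptor for Ccl25 on gut-homing T cells, had 4.88, 3.51 and 6.65 CPM in mutant and 0.899, 1.57 and 2.31 CPM in wildtype libraries. It missed the threshold in the default fit (adjusted p = 0.052 by edgeR) and passed in the small-count fit (0.036). Its exons overlap those of Slc6a20a on the opposite strand, which had 192, 150 and 260 counts in mutant and 95, 106 and 58 counts in wildtype libraries, so the counts of Ccr9 are uncertain.

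Cxcl12, the stromal ligand of Cxcr4 that retains progenitor cells and guides vessels, rose in the default fit with 1 wildtype library far from the others. It had 19.0, 15.4 and 15.1 CPM in mutant and 0.281, 10.5 and 7.68 CPM in wildtype libraries. The mutant libraries lay close together above W2 and W3, and W1 was far below all others. Its log2 fold change was 1.42 ± 0.31 (SE) and edgeR gave adjusted p values of 8.2e-05 in its default fit and 0.10 in its small-count fit, whereas DESeq2 gave 0.53. Without W1 the log2 fold change was 0.86 (adjusted p = 0.02 by edgeR's default fit), and without M1 and W1 together it was 0.75 (adjusted p = 0.099). Sums of keratocyte and blood endothelial markers had the same order of libraries, but only the endothelial sum was far lower in W1. Of the 10 endothelial markers 5 rose in the default fit, 2 in the small-count fit and 0 after filterByExpr. Of 9 keratocyte markers all rose in the default fit and 8 in the small-count fit, with sums of 4926, 2069 and 1113 CPM in mutant and 372, 552 and 439 CPM in wildtype libraries, and 10 blood endothelial markers summed to 157, 76.0 and 64.0 CPM in mutant and 2.81, 54.8 and 52.6 CPM in wildtype libraries. Their part in the level of Cxcl12 was not tested. Its receptor Cxcr4 had 14, 16 and 11 counts in mutant and 10, 7 and 9 counts in wildtype libraries, with a log2 fold change of 0.62 ± 1.21 (SE).

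Among the members with at least 1 CPM in a genotype, 8 did not pass in the default fit. Cx3cl1, a membrane-bound ligand that tethers monocytes, had 49.7, 54.0 and 41.6 CPM in mutant and 48.4, 51.2 and 59.2 CPM in wildtype libraries, and the groups overlapped. Its log2 fold change was -0.13 ± 0.17 (SE), between -0.21 and -0.03 with a library left out. Its receptor Cx3cr1, of tissue macrophages, had 31, 19 and 64 counts in mutant and 12, 16 and 6 counts in wildtype libraries. The groups of Cx3cr1 did not overlap, and its log2 fold change of 1.59 ± 0.90 (SE) did not pass (adjusted p = 0.38 by edgeR). Exons of Cx3cr1 overlap those of Gm33858 on the opposite strand. Ackr3, the atypical receptor that removes Cxcl12, had 6.63, 9.99 and 8.99 CPM in mutant and 7.75, 15.7 and 11.7 CPM in wildtype libraries, with a log2 fold change of -0.45 ± 0.32 (SE).

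Ccl28, a ligand of mucosal epithelia for Ccr10 and Ccr3, had 4.58, 6.81 and 5.49 CPM in mutant and 10.8, 5.77 and 2.84 CPM in wildtype libraries. The wildtype libraries spread more widely than the mutant ones and enclosed them. Ccl25, a ligand of gut and thymic epithelium, had 3.62, 4.57 and 4.63 CPM in mutant and 3.60, 3.15 and 4.37 CPM in wildtype libraries, and its exons overlap those of Elavl1 on the opposite strand. Cxcl14, a ligand that many epithelia make, had 1.33, 5.41 and 1.53 CPM in mutant and 1.35, 2.21 and 3.31 CPM in wildtype libraries. The log2 fold changes of Ccl28, Ccl25 and Cxcl14 were -0.20 ± 0.42, 0.21 ± 0.52 and 0.26 ± 0.65 (SE). These standard errors come from the default fit. They reflect the spread of typical genes, not that of the replicates of these 3 genes.

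**Figure D3:**
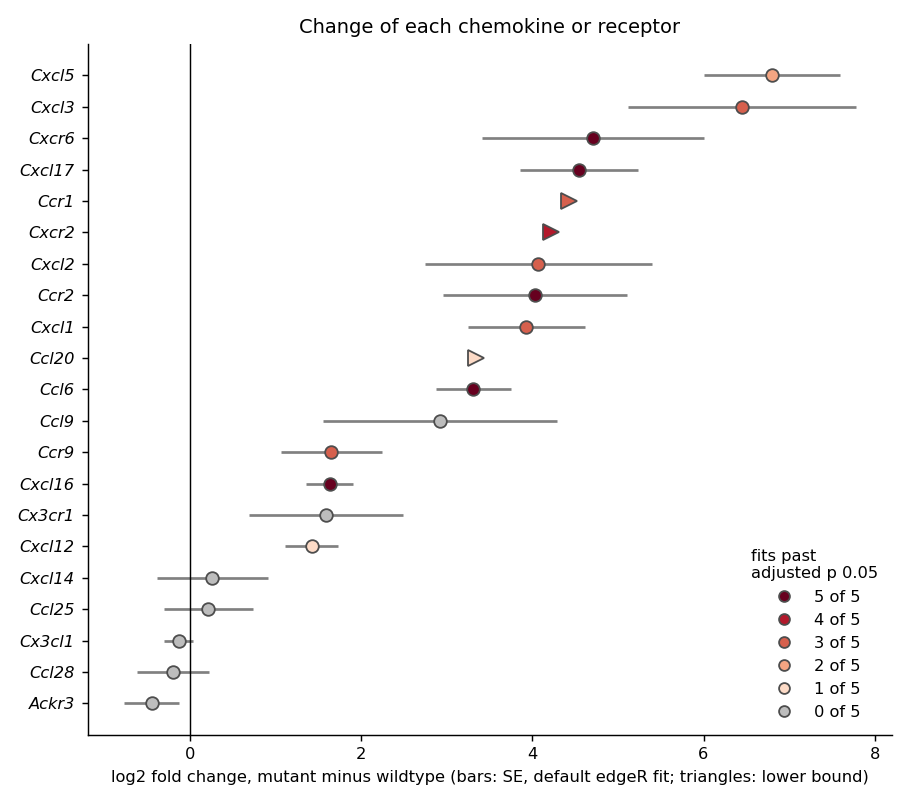
Log2 fold change (mutant minus wildtype) of 13 of the members that rose and of the 8 others with at least 1 CPM in a genotype, with the standard error of the default edgeR fit; triangles are lower bounds against 3 counts for genes with no wildtype count. Colour gives how many of 5 unfiltered fits passed, which was 5 for Cxcl17, Cxcl16, Ccl6, Ccr2 and Cxcr6 and 1 for Cxcl12 and Ccl20.

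The other 31 members with a count were neither called nor at 1 CPM in a genotype, and 11 of them reached 10 counts in a library. Ccl22, a dendritic cell ligand for Ccr4, had 13, 17 and 9 counts in mutant and 1, 0 and 0 counts in wildtype libraries, and passed by DESeq2 and limma-voom but not by edgeR (adjusted p = 0.091). Cxcl13, the B cell ligand, reached 18 counts in W2 and Ccl11, the eosinophil ligand, 16 counts in W3, and both were at 0 in W1. Ackr1, the atypical receptor of venules, had 11 counts in W3 and at most 6 in a mutant library, and Ackr4, which removes Ccl19, Ccl21 and Ccl25, had 12, 11 and 17 counts in mutant and 0, 5 and 6 counts in wildtype libraries. Cxcl10, a ligand induced by interferon, had 10, 0 and 4 counts in mutant and 0, 1 and 0 counts in wildtype libraries. Its relative Cxcl9 had 7 counts over the mutant libraries, and their receptor Cxcr3 had 1. Ackr2 and Ccl27a also reached 10 counts, in M2 and M3. Exons of Ackr4, Cxcl10 and Ccl27a overlap those of Acad11, Art3 and Il11ra1 on the opposite strand. Those of Ackr1 overlap exons of Cadm3 on the same strand, so the counts of these 4 members are uncertain as well.

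In total 15 members had counts in mutant libraries and in no wildtype library, and the reverse held for Ccl19 (3 counts) and Cxcl15 (1 count). The number of members with at least 1 count was 34, 44 and 42 in M1 to M3 and 17, 28 and 29 in W1 to W3. Over all genes it was 20581, 21027 and 21339 in M1 to M3 and 18486, 19938 and 22456 in W1 to W3. W1 was thus the lowest library in both counts, while W3 was the highest over all genes. Of 14 members with 0 counts in all 6 libraries, 7 lie on unplaced scaffolds. These scaffold copies, with Ccl21b and Ccl27b on chromosome 4, belong to nearly identical copies of Ccl19, Ccl21 and Ccl27, so their zeros are uncertain, because reads that align to several places were reported apart from the genes. The other members at 0 were Ccl1, Ccl24, Ccl26, Ccr1l1 and Cxcr1. Over 3 libraries a count of 0 allows up to 3 counts, or 0.0529 CPM in mutant and 0.0556 CPM in wildtype corneas, for counting error only.

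Compared between genes as CPM per kilobase of merged exons, Cx3cl1 was the most abundant member in both genotypes, at 12.3 ± 1.6 in mutant and 13.5 ± 1.42 in wildtype corneas (SD, n = 3 each). In mutant corneas it was followed by Cxcl17 at 8.18 ± 1.85, Cxcl16 at 7.90 ± 2.54 and Ccl6 at 7.01 ± 2.25 (SD, n = 3 each), which did not differ from each other beyond their spread, and then by Cxcl5 at 3.75 and Cxcl1 at 3.14, each with an SD larger than its mean. In wildtype corneas Ackr3 at 3.50 and Cxcl16 at 2.56 came next, ahead of Ccl28 at 1.34 and Cxcl14 at 1.25, while Cxcl17 stood at 0.346 and Ccl6 at 0.708. Summed over all 39 ligand symbols the level was 142 ± 28.9 CPM in mutant and 82.9 ± 4.73 CPM in wildtype corneas, and over the 23 receptors 25.8 ± 4.79 CPM in mutant and 15.2 ± 4.81 CPM in wildtype corneas (SD, n = 3 each). Of 39 listed pairs of a ligand and its receptor, both partners rose in 6, Ccl6 with Ccr1, Cxcl16 with Cxcr6, and Cxcl1, Cxcl2, Cxcl3 and Cxcl5 with Cxcr2. This holds for the default fit. In the small-count fit both partners rose in 1 pair, Cxcl16 with Cxcr6, and without M2 in 0.

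**Figure D4:**
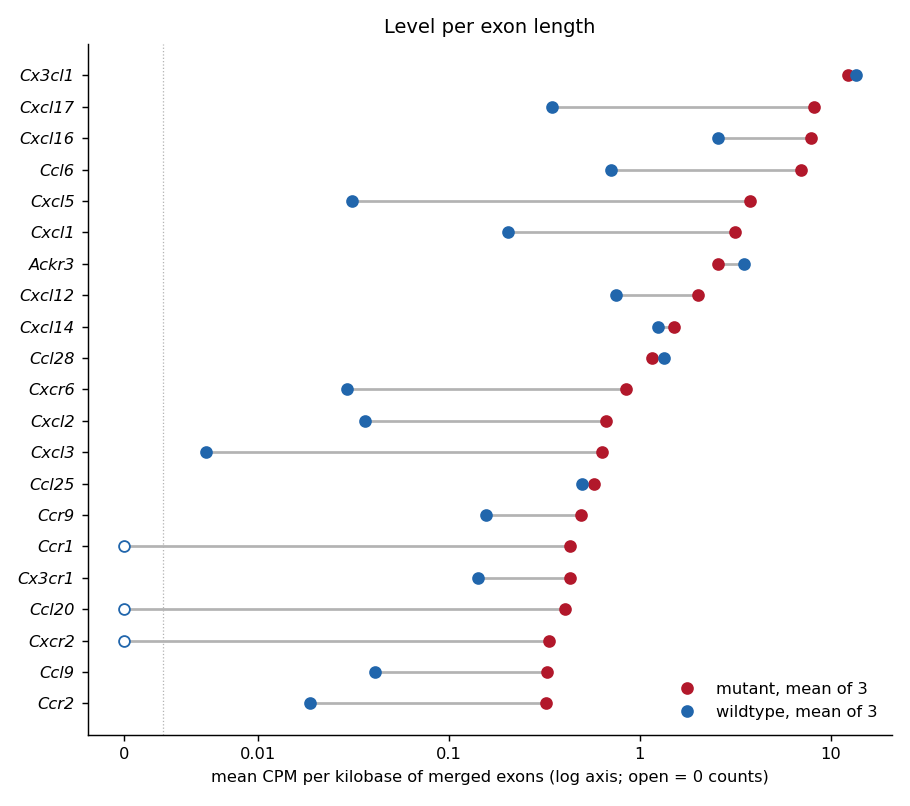
Mean CPM per kilobase of merged exons (log axis) of 21 members in mutant (red) and wildtype (blue) corneas, 3 libraries each, ordered by the mutant mean, with open symbols for 0 counts. Cx3cl1 is the highest in both genotypes, and Cxcl17, Cxcl16 and Ccl6 follow it in mutant corneas.

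Genes downstream of chemokine receptors, on a list of 45 signalling genes, rose in 12 cases and fell in 2. In the small-count fit 11 rose and 1 fell, and after filterByExpr 5 rose and 1 fell. Over all genes tested, 5.53% rose and 3.96% fell in the default fit, the background for this and the following lists. The Src kinase Lyn had 103, 129 and 142 CPM in mutant and 56.0, 37.1 and 30.1 CPM in wildtype libraries, and Dock2, the Rac activator of migrating leukocytes, 8.44, 16.9 and 10.6 CPM in mutant and 0.225, 0.291 and 2.26 CPM in wildtype libraries. Prex1 and Vav3 are further activators of Rac, with log2 fold changes of 2.02 ± 0.32 and 1.35 ± 0.23 (SE). Fermt3, an integrin activator of blood cells, fell by 1.48 on the log2 scale, and its exons overlap those of Trpt1. Ptk2b, a kinase related to FAK, fell by 0.49 (adjusted p = 0.036 by edgeR's default fit and 0.12 by its small-count fit). In the list of 15 genes that end receptor signalling 3 rose, among them the receptor kinases Grk2 by 0.60 ± 0.16 and Grk5 by 1.15 ± 0.38 on the log2 scale (SE), and Rgs10 fell by 1.36. Rgs1 rose by 5.44 ± 1.30 in the default fit and did not pass in the small-count fit (adjusted p = 0.062 by edgeR).

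Of 19 chemokine-like genes outside the naming rule 3 rose and 2 fell. Ppbp, the platelet chemokine also known as Cxcl7, had 3.07, 1.28 and 5.44 CPM in mutant libraries and no count in wildtype libraries. Cd74, the invariant chain and receptor of Mif, rose by 3.05 ± 0.20 on the log2 scale (SE) and Cmtm3 by 1.81 ± 0.62, while Mif and Pitpnm3 fell by 0.67 and 0.61. The groups of Pitpnm3 overlapped, and it did not pass in the small-count fit (adjusted p = 0.23 by edgeR). Of 26 inducers and processing enzymes 11 rose and 1 fell. Mmp2 rose by 2.73 ± 0.27, Ifngr1 by 1.27 ± 0.16, Tnfaip3 by 0.96 ± 0.19 and Dpp4, a protease that trims chemokines, by 1.32 ± 0.29 on the log2 scale (SE), and Zfp36, which destabilises cytokine mRNA, fell by 0.57. The groups of Tnfaip3 overlapped, and its adjusted p by edgeR's small-count fit was 0.14. In the small-count fit 5 genes of this list rose. Of 21 leukocyte adhesion genes 9 rose and 1 fell, and 8 and 1 in the small-count fit. Icam1 rose by 3.33 ± 0.33 on the log2 scale (SE), Itgae had 4.82, 6.30 and 4.45 CPM in mutant libraries and no wildtype count, while Cd44 fell by 0.93 on the log2 scale. Pecam1 and Itgb2, an endothelial adhesion molecule and a leukocyte integrin chain, had log2 fold changes of 2.44 ± 0.39 and 3.47 ± 0.69 (SE). Pecam1 is also 1 of the 10 blood endothelial markers, which summed to 2.81 CPM in W1, against 54.8 and 52.6 CPM in W2 and W3. Of these 10 markers 0 rose after filterByExpr. Over these 5 lists 38 of 126 genes rose and 7 fell in the default fit, and 29 and 5 in the small-count fit, and the median log2 fold change of the lists was 1.11, beside -0.01 over all genes tested. Of the genes named from these lists by the size of their p, Ptk2b, Rgs1, Pitpnm3 and Tnfaip3 did not pass in the small-count fit and the others did.

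Markers of several leukocyte types, though not of all, moved with the receptors. Of 89 genes on 9 leukocyte marker lists 28 rose and 1, the mast cell marker Kit, fell, beside 5.53% and 3.96% of all genes. In the small-count fit 23 rose and 1 fell. Ptprc, the antigen of all leukocytes, had 9.28, 14.6 and 14.2 CPM in mutant and 0.618, 0.583 and 0.947 CPM in wildtype libraries. The 15 macrophage markers summed to 181, 215 and 227 CPM in mutant and 77.5, 68.8 and 58.0 CPM in wildtype libraries, and 10 of them rose in the default fit, 7 in the small-count fit and 6 after filterByExpr. The 16 T cell markers summed to 10.2, 22.7 and 17.4 CPM in mutant and 2.70, 0.758 and 0.579 CPM in wildtype libraries, with 5 higher in the default fit, 2 in the small-count fit and 2 after filterByExpr, and 7 at 0 in every wildtype library. The 11 dendritic and Langerhans markers summed to 85.7, 74.9 and 99.9 CPM in mutant and 6.24, 17.9 and 9.20 CPM in wildtype libraries. For these 3 lists each mutant library, M1 included, had a higher sum than any wildtype library. The sum over the 7 mast cell markers went the other way. It was 139, 116 and 108 CPM in mutant and 221, 256 and 289 CPM in wildtype libraries. Single mast cell markers did not all follow this sum. Mcpt4, Tpsb2 and Cma1 had counts in mutant libraries only, and the median log2 fold change of the 6 markers with a count was 2.81. Among 10 natural killer, 8 B and plasma cell and 5 eosinophil markers, 1, 2 and 0 rose in the default fit, and 1, 2 and 0 passed filterByExpr. The natural killer markers summed to 2.83, 4.85 and 4.95 CPM in mutant and 0.45, 0 and 1.31 CPM in wildtype libraries. For B and plasma cell markers the sums were 8.44, 6.19 and 56.6 CPM in mutant and 1.01, 1.81 and 2.47 CPM in wildtype libraries. The sums of these 2 lists did not overlap between the groups either. The part of leukocyte number in the receptor levels was not tested.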

How the data were processed

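Per the labels' protocols, total RNA of corneas was extracted with a column kit and sequenced as paired reads of 100 nucleotides from a stranded library kit meant for low input. The submitters' processing notes name GRCm38, and as tools HTSeq, HISAT2, Trim Galore, SAMtools and edgeR, with no versions, settings or strand option. Values in the deposited files are unnormalized gene counts by Ensembl ID. The 5 HTSeq summary lines, 53.3% of all lines' total, were left out. GENCODE M21 (GRCm38) named 55240 of the 55421 gene IDs.

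The analysis used R 4.3.3 and edgeR 4.0.16 (TMM, estimateDisp, glmQLFit and glmQLFTest, default settings, genotype as the only term) on the 28717 genes with at least 1 count, with Benjamini-Hochberg adjustment at 0.05. Alternatives were filterByExpr (minimum count 10, minimum total 15), 1 CPM in 3 libraries, RLE, upper-quartile and no factors, DESeq2 1.42.0, limma-voom (limma 3.58.1), removal of mitochondrial and structural RNA genes, an adjusted p of 0.01 and leaving out libraries. The small-count fit and its robust version were added after the data were seen. Only 16 members passed filterByExpr. The fits were also run on simulated counts drawn with the spread of the trend over all genes. That run cannot show how they treat genes with unequal replicates.

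Described by value are members past the threshold or with at least 1 CPM in a genotype, except 1 that is not reported here. From each other list up to 4 genes with the smallest p in each direction are named, except in the marker lists, which are given as sums; Il17a, Il1b, Il17f, Il6, Tnf, S100a9 and Ptprc were named after their values were seen. Members and lists were chosen with earlier results of these data known. P-values refer to these libraries only. Those of the default fit rest on the spread of typical genes and not on each gene's own spread between replicates. Floors are 3 counts over a group, and 95% intervals are exact (Clopper-Pearson).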

Additional observations from a re-analysis of the deposited data

How the results depend on the processing

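No paired analysis was possible because the labels give no replicate numbers that the groups share. In the default fit 14 members were higher. The number was 5 with filterByExpr, where 7 of the 14 were tested, and 3 with at least 1 CPM in 3 libraries, which tests fewer of them. It was 8 with the small-count fit and 9 with its robust version. With a replicate left out it was 5 to 14, lowest without M2 at 5 and next without M3 at 9. Calls lost without M2 included Ccl20, Ccr1, Ccr2, Cxcl1, Cxcl2, Cxcl3, Cxcr2 and Cxcr6. The 38 pathway genes that rose were 16 with filterByExpr, 19 with at least 1 CPM in 3 libraries and 24 to 42 with a replicate left out; the 7 that fell were 4 with filterByExpr. The 28 leukocyte marker genes that rose were 18 with filterByExpr and 17 with at least 1 CPM in 3 libraries. RLE, upper-quartile and no factors, and removal of structural RNA genes, each kept 13 of the 14 calls and lost that of Ccl20, and an adjusted p of 0.01 kept 11. DESeq2 kept 11 and limma-voom 9 of the 14, and each added 2 others, Ccl22 with Ccr9 and Ccl22 with Ccr6. The sign of the log2 fold change of Ccl28 turned with limma-voom (0.0), without W1 (0.39) and without M1 and W1 together (0.52), and that of Cxcl14 without M2 (-0.68) and without W1 (-0.01). With a replicate left out these ranged over -0.56 to 0.39 for Ccl28 and -0.68 to 0.63 for Cxcl14. The causes were not tested. Over the named members 315 of the alternative log2 fold changes kept their direction and side of the threshold, 54 kept the direction and lost the call, 4, all of Ccr9, gained one, and 5 turned. No member was lower in any fit. Depth limits members under about 10 counts in a library, for which counts of 0 and of a few cannot be set apart.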
